A study of Danio rerio with 6 samples.

Results

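Nuclear receptors are transcription factors that bind DNA through a pair of zinc fingers and, in many cases, are switched by a small lipid-soluble ligand such as retinoic acid, thyroid hormone or a steroid. Many of them, the retinoic acid receptors among them, bind as heterodimers with a retinoid X receptor, while others have no known ligand and are called orphan receptors. In the vertebrate hindbrain, retinoic acid acts through its receptors to set the expression of *hox* genes, which is the setting in which the *hoxb1b* mutant was studied. The genes described here are the rows of the deposited count table whose symbol matches a pattern of receptor names (*nr0* to *nr6* with a subgroup letter from a to f, *rar*, *rxr*, *thr*, *esr*, *esrr*, *ppar*, *ror* and *vdr*). The pattern found 58 of the 13466 genes in the table. Of these, 57 are receptor genes and 1, *nr2c2ap*, encodes a protein named for its association with a receptor. The pattern does not take *nr1h*, *nr1i*, *hnf4*, *ar* or *pgr* symbols, although these are receptors too.

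RNA-seq compared 3 libraries of wildtype zebrafish embryos with 3 libraries of homozygous *hoxb1b* mutants (*hoxb1b-/-*, allele um197) at 18hpf, all grown at the same temperature and made from pools of whole embryos freed of chorion and yolk. The wildtype strain is not given in the sources used here, and neither is whether each library had its own pool of embryos, so that p-values measure only the spread between these libraries. *hoxb1b* encodes a paralog group 1 Hox protein, and its transcript was not lower in the mutants (69.1 ± 2.37 CPM in wildtype and 84.4 ± 0.787 CPM in mutant libraries, SD, n = 3 each, log2 fold change 0.29, edgeR adjusted p = 8.71e-09), so that its level does not check the labels. Library totals ranged from 19139322 to 29146812 counts, and the 58 symbols together took up 0.162% to 0.164% of a wildtype library and 0.174% to 0.177% of a mutant one. Expression is given as CPM, which scales the count to the normalized library size. CPM is not corrected for transcript length, so levels are compared between libraries and not between genes. Log2 fold changes are mutant over wildtype, from edgeR's quasi-likelihood test with Benjamini-Hochberg adjustment over all 12471 genes that passed the filter for low expression. As whole embryos were sequenced, fewer cells of a type and less RNA per cell cannot be told apart for any gene below.

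Most receptor genes showed small differences or none that passed the test. Of the 54 symbols tested, 12 were higher and 15 lower in the mutants at an adjusted p under 0.05, and 27 did not pass. Together the 27 called symbols are 50% of those tested, whereas 66.2% of all tested genes were called, 32.6% as higher and 33.6% as lower. At each level of expression the called share was also below that of all tested genes in these libraries. It was 30.8% against 50.9% below a mean of 2 CPM, 50% against 58.9% from 2 to 10 CPM, and 60.9% against 72% at 10 CPM or more. These shares are descriptions and their difference was not tested. The median size of the change was 0.20 on the log2 scale over the tested symbols and 0.24 over all tested genes. Among the 27 called symbols 18 changed by less than 1.5-fold, and beyond 1.5-fold 2 were higher and 7 lower (background 18.6% of all tested genes, 5.08% higher and 13.5% lower). Only 1 receptor, *nr6a1a*, was called with a change beyond 2-fold, the size that the study required (1 higher and 0 lower). Beyond 2-fold, 8.36% of all tested genes were called, 1.7% as higher and 6.66% as lower. Libraries of the genotypes did not overlap for 27 of the 54 symbols (50%), compared with 68.1% of all tested genes. In 12 symbols the mutants lay above (background 33.7%) and in 15 below (background 34.5%).

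**Figure D1:**
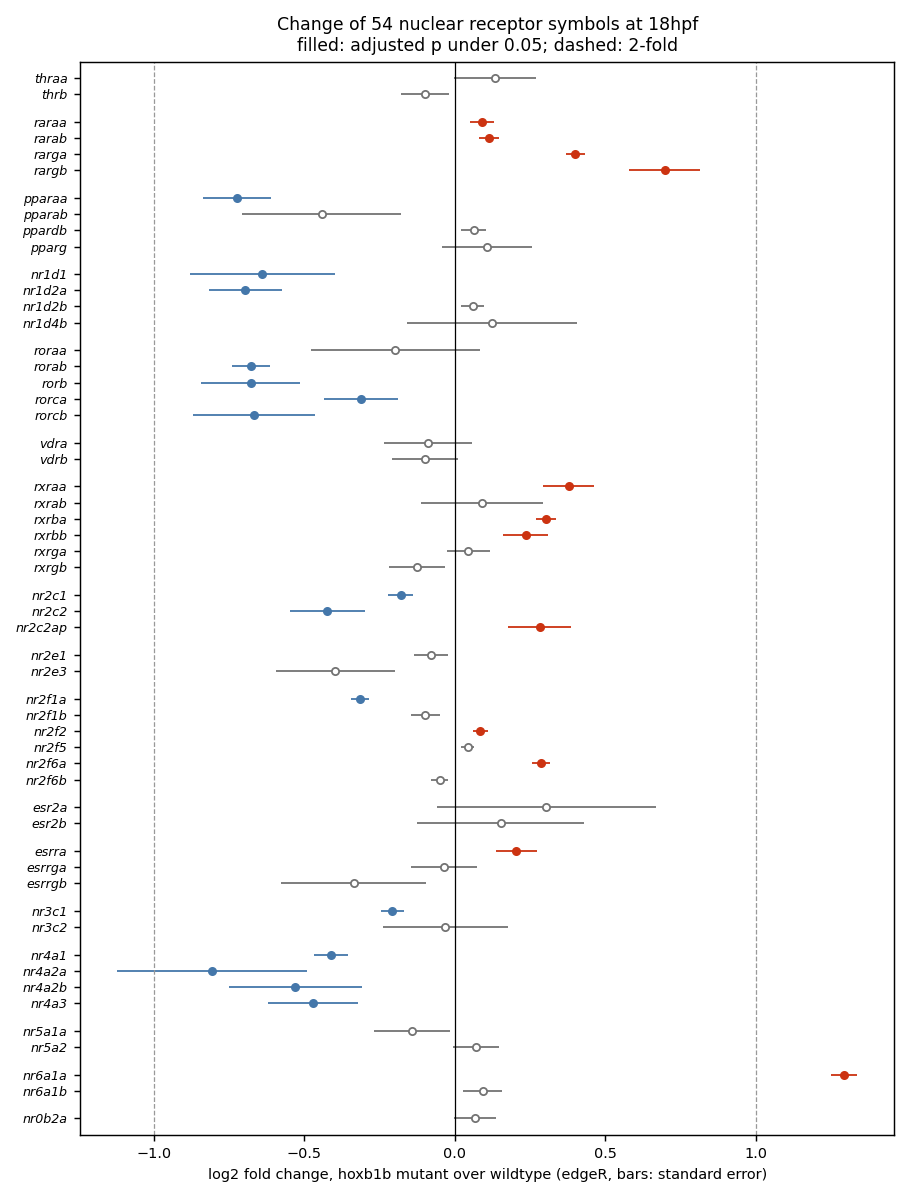
Log2 fold change of each of the 54 tested symbols (x axis, mutant over wildtype, bars are the standard error), grouped by receptor subfamily. Filled points have an adjusted p under 0.05, dashed lines mark a 2-fold change, and *nr6a1a* at 1.29 is the only point beyond them.

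The largest change was in *nr6a1a*, which encodes an orphan receptor of the germ cell nuclear factor type. In mice the single Nr6a1 silences pluripotency genes as the embryo gastrulates and is needed for trunk development. Wildtype libraries held 25.5, 25.3 and 24.9 CPM of *nr6a1a*, and mutant libraries held 63.0, 64.6 and 58.9 CPM. Every mutant library therefore lay far above every wildtype library, and the difference was many times the spread within either genotype. The increase was 2.45-fold, or 1.29 on the log2 scale (standard error 0.04, edgeR adjusted p = 1.30e-20), with a range of 1.27 to 1.34 over the 6 fits that each drop 1 library. Only 109 of the 12471 tested genes had a larger increase. The duplicate gene *nr6a1b* had 15.6, 14.1 and 16.1 CPM in wildtype and 16.8, 15.5 and 16.4 CPM in mutant libraries. These ranges overlap, and the log2 fold change of 0.09 (standard error 0.06, edgeR adjusted p = 0.212) did not pass the test. Counts of both genes were whole numbers in every library, so they give no sign of reads that RSEM divided between places.

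Retinoic acid receptors were higher in the mutants. Zebrafish have a pair of genes for the alpha receptor, *raraa* and *rarab*, and a pair for the gamma receptor, *rarga* and *rargb*. All 4 were called higher (background 32.6% of all tested genes). *rarga* rose from 65.5, 65.4 and 69.3 CPM in wildtype to 88.1, 89.0 and 86.9 CPM in mutant libraries, with no overlap. Its log2 fold change was 0.40 (standard error 0.03, edgeR adjusted p = 9.74e-12). *rargb* rose from 3.46, 3.75 and 3.74 CPM to 5.36, 6.76 and 5.60 CPM, again without overlap (log2 fold change 0.70, standard error 0.12, edgeR adjusted p = 7.46e-06). The alpha receptors changed less. *rarab* had 76.3, 77.9 and 80.0 CPM in wildtype and 82.4, 86.9 and 83.7 CPM in mutant libraries (log2 fold change 0.11, standard error 0.03, edgeR adjusted p = 0.00304). *raraa* had 43.5, 43.2 and 45.4 CPM in wildtype and 44.7, 48.3 and 47.2 CPM in mutant libraries, and these ranges overlap. Its log2 fold change of 0.09 (standard error 0.04, edgeR adjusted p = 0.0479) lay close to the threshold and passed with only 2 of the 6 libraries left out in turn. Summed over the genes for both receptors, expression was 193 ± 5.22 CPM in wildtype and 225 ± 5.40 CPM in mutants (SD, n = 3 each). In the reference annotation *rarga* overlaps *nr1d4a* and *rargb* overlaps *nr1d4b*, and whether the counting used strand is not given in the sources used here. *nr1d4a* held 5 to 10 counts per library and was not tested, and *nr1d4b* had 0.839 ± 0.250 CPM in wildtype and 0.936 ± 0.309 CPM in mutant libraries (SD, n = 3 each).

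Retinoid X receptors, the shared dimerization partners of many receptors, were higher or did not pass the test. Of the 6 genes, *rxraa*, *rxrba* and *rxrbb* were called higher (background 32.6% of all tested genes). *rxraa* had 7.98, 7.63 and 6.87 CPM in wildtype and 10.4, 9.52 and 9.56 CPM in mutant libraries (log2 fold change 0.38, standard error 0.08, edgeR adjusted p = 0.000307). *rxrba* had 63.4, 64.6 and 66.6 CPM in wildtype and 79.6, 82.4 and 78.3 CPM in mutant libraries (log2 fold change 0.30, standard error 0.03, edgeR adjusted p = 4.79e-09). The genotypes did not overlap for either gene. The counts of *rxrba* were fractional in all 6 libraries, which RSEM gives where reads fit more than 1 place. *rxrbb* held 10.2, 9.43 and 9.13 CPM in wildtype and 10.8, 11.4 and 11.6 CPM in mutant libraries (log2 fold change 0.24, standard error 0.08, edgeR adjusted p = 0.00800). DESeq2 gave an adjusted p of 0.0547 for *rxrbb*, and the reference annotation shows this gene overlapping another protein-coding gene. Log2 fold changes were 0.09 for *rxrab*, 0.05 for *rxrga* and -0.13 for *rxrgb*, with edgeR adjusted p-values from 0.234 to 0.705. Without wildtype replicate 2, *rxrgb* passed the test as lower, with a log2 fold change of -0.22 (edgeR adjusted p = 0.0415).

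Genes that make, bind and break down retinoic acid showed no common direction. Of 17 such genes, 16 were tested, of which 9 rose and 4 fell (background 32.6% and 33.6% of all tested genes). The largest changes in this list were in the degrading enzyme *cyp26b1* (log2 fold change -1.13), the retinaldehyde dehydrogenase *aldh1a3* (1.04), the retinol carrier *rbp4* (-1.02) and the retinaldehyde reductase *dhrs3b* (-0.56). Their edgeR adjusted p-values were under 0.05, as were those of the synthesizing enzyme *aldh1a2* (0.14) and of *cyp26a1* (-0.08). Related genes of *cyp26b1* and *dhrs3b* went the other way, with *cyp26c1* (0.19) and *dhrs3a* (0.46) higher at edgeR adjusted p-values under 0.05. These further 4 genes were named after their values were seen. Summed expression of the list was 663 to 670 CPM in wildtype and 648 to 656 CPM in mutant libraries.

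**Figure D2:**
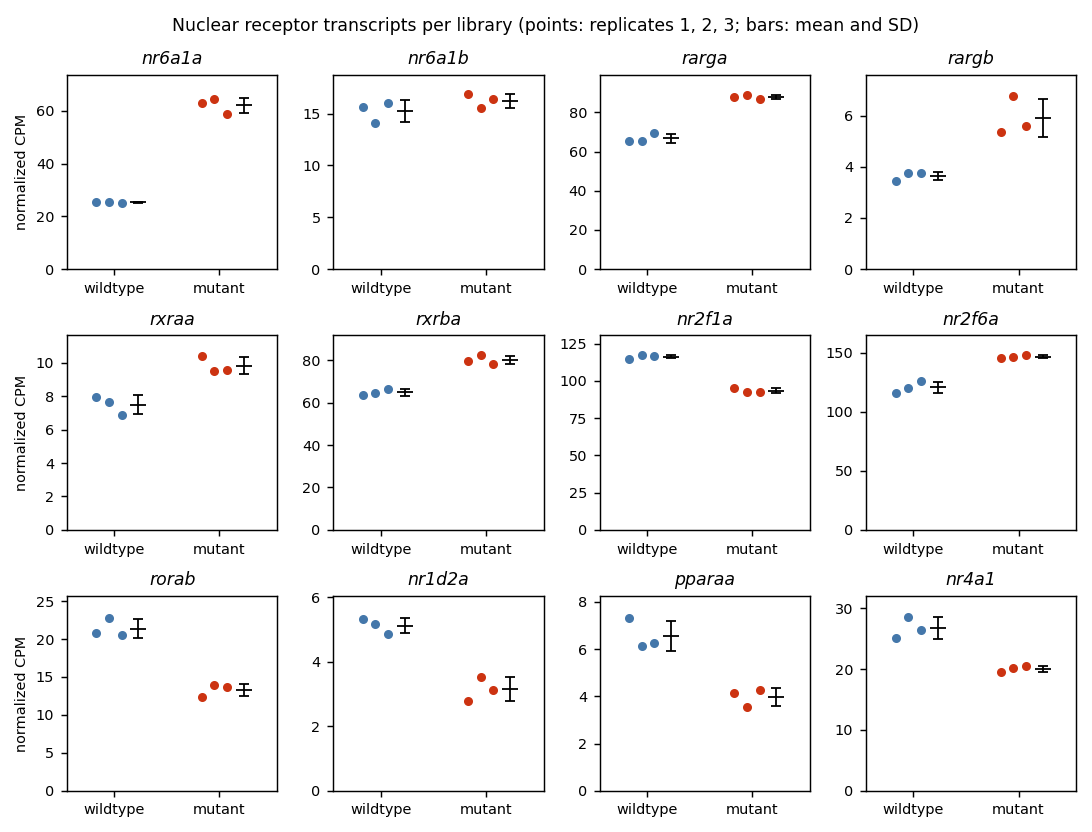
Normalized CPM (y axis, from 0) of 12 receptor genes in each library, with points for replicates 1 to 3 of each genotype and a bar for the mean and SD. Points of the genotypes do not overlap in any panel except that of *nr6a1b*.

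The receptors of the COUP-TF group, *nr2f*, are orphan receptors that act in the heart, in venous vessels and in the brain, and *nr2f2* is among the genes that the study assayed in rhombomeres 5 and 6. Their summed expression was little altered, while members moved in both directions. *nr2f1a* fell from 115, 117 and 117 CPM in wildtype to 95.5, 92.4 and 92.6 CPM in mutant libraries (log2 fold change -0.31, standard error 0.03, edgeR adjusted p = 1.14e-10). *nr2f6a* rose from 116, 120 and 126 CPM to 145, 146.5 and 148 CPM (log2 fold change 0.29, standard error 0.03, edgeR adjusted p = 9.56e-10). In both genes all mutant libraries lay on one side of all wildtype libraries. *nr2f2* had 186, 190 and 188 CPM in wildtype and 200.3, 197 and 201 CPM in mutant libraries. Its increase (0.09 on the log2 scale, standard error 0.02, edgeR adjusted p = 0.00292) was the smallest change called among the receptor genes. *nr2f5* (0.04, edgeR adjusted p = 0.0967), *nr2f1b* (-0.10, edgeR adjusted p = 0.0708) and *nr2f6b* (-0.05, edgeR adjusted p = 0.122) did not pass the test. The genotypes of *nr2f5* did not overlap. With total count scaling *nr2f5* passed as higher (log2 fold change 0.088, edgeR adjusted p = 0.0010), and so it did without the filter (0.051, edgeR adjusted p = 0.049). *nr2f1b* passed as lower without wildtype replicate 1 or mutant replicate 1 (log2 fold changes -0.14 and -0.13). Summed over the group, expression was 945 ± 13.3 CPM in wildtype and 962 ± 4.05 CPM in mutant libraries (SD, n = 3 each).

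The *ror* genes were lower in the mutants. ROR proteins bind DNA as monomers and, in mammals, activate clock and metabolic genes at sites where the *nr1d* (Rev-erb) proteins repress. Of the 5 genes, 4 were called lower (background 33.6% of all tested genes). *rorab* fell from 20.8, 22.8 and 20.5 CPM in wildtype to 12.4, 13.9 and 13.6 CPM in mutant libraries (log2 fold change -0.68, standard error 0.06, edgeR adjusted p = 2.13e-10). *rorb* fell from 2.77, 2.87 and 3.90 CPM to 2.06, 1.72 and 2.09 CPM (log2 fold change -0.68, standard error 0.16, edgeR adjusted p = 0.000681). *rorcb* fell from 2.43, 2.25 and 1.79 CPM to 0.927, 1.77 and 1.35 CPM (log2 fold change -0.67, standard error 0.20, edgeR adjusted p = 0.00529). The genotypes were separate for all of these, although in *rorcb* the lowest wildtype and the highest mutant library lay side by side. In the reference annotation *rorcb* overlaps *cactin*, and the part of this overlap in its value was not tested. *rorca* fell by 0.31 (standard error 0.12, edgeR adjusted p = 0.0265), and leaving out 1 library removed its call in 2 of 6 cases, with changes down to -0.19. DESeq2 did not call *rorca* either (adjusted p = 0.138), which leaves 3 of the 5 *ror* genes called lower by both tools. *roraa*, with 0.771 ± 0.143 CPM in wildtype and 0.667 ± 0.0940 CPM in mutant libraries (SD, n = 3 each), did not pass (edgeR adjusted p = 0.558). The summed expression of the *ror* genes was 32.4 ± 1.04 CPM in wildtype and 21.3 ± 1.18 CPM in mutants (SD, n = 3 each).

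Among the *nr1d* genes, whose products repress clock genes in mammals, *nr1d2a* was lower, with 5.33, 5.16 and 4.87 CPM in wildtype and 2.78, 3.53 and 3.14 CPM in mutant libraries. Its log2 fold change was -0.70 (standard error 0.12, edgeR adjusted p = 1.20e-05). *nr1d1* was also lower, with 1.19, 1.45 and 1.03 CPM in wildtype and 0.824, 0.818 and 0.743 CPM in mutant libraries. Its log2 fold change of -0.64 (standard error 0.24, edgeR adjusted p = 0.0213) lost the call in 2 of 6 fits with a library left out and with DESeq2 (adjusted p = 0.130). *nr1d2b* had 48.1 ± 1.45 CPM in wildtype and 50.1 ± 0.856 CPM in mutant libraries (SD, n = 3 each) and did not pass (edgeR adjusted p = 0.163). Of 25 other clock genes listed and tested, 9 were higher and 7 lower (background 32.6% and 33.6% of all tested genes). The largest changes were in *cry1ba* (log2 fold change -1.33), *cry5* (1.12) and *cry1bb* (-0.83), listed for their cryptochrome symbols, and in the period gene *per1b* (0.84). All had edgeR adjusted p-values under 0.05.

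All 4 *nr4a* genes were called lower in the mutants by edgeR (background 33.6% of all tested genes). They encode receptors that act without a ligand and whose transcription is induced rapidly by many stimuli. *nr4a1* fell from 25.1, 28.6 and 26.5 CPM in wildtype to 19.5, 20.2 and 20.4 CPM in mutant libraries (log2 fold change -0.41, standard error 0.06, edgeR adjusted p = 1.94e-07). *nr4a3* fell from 2.99, 3.70 and 3.69 CPM to 2.88, 2.58 and 2.13 CPM (log2 fold change -0.47, standard error 0.15, edgeR adjusted p = 0.00717). *nr4a2a*, whose mammalian counterpart is needed for midbrain dopaminergic neurons, fell from 0.853, 0.661 and 0.667 CPM to 0.463, 0.474 and 0.338 CPM (log2 fold change -0.81, standard error 0.32, edgeR adjusted p = 0.0264). *nr4a2b* had overlapping genotypes and a log2 fold change of -0.53 (standard error 0.22, edgeR adjusted p = 0.0364). Only the call of *nr4a1* also passed with DESeq2, whose adjusted p-values for *nr4a3*, *nr4a2a* and *nr4a2b* were 0.0590, 0.154 and 0.163. With single libraries left out, the call was lost in 1 of 6 fits for *nr4a3*, 2 for *nr4a2a* and 4 for *nr4a2b*. Other immediate early genes moved alongside. Of 12 tested, 9 were lower (background 33.6% of all tested genes), among them *egr3* (log2 fold change -1.37), *atf3* (-1.30), *fosab* (-1.03) and *junbb* (-0.82), and the other 3 did not pass.

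**Figure D3:**
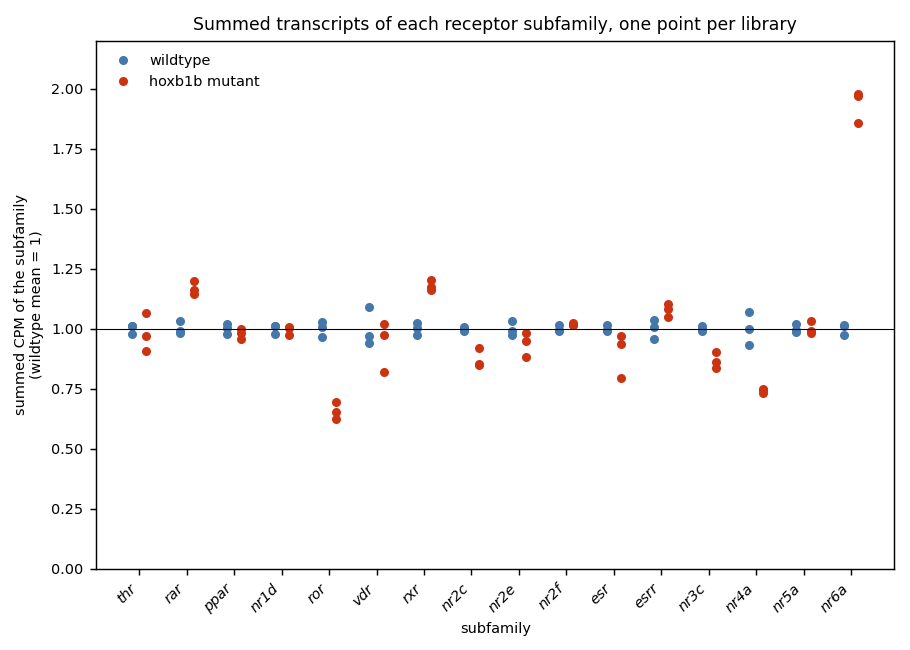
Summed CPM of each receptor subfamily in each library, divided by its mean over the wildtype libraries (y axis, from 0), with 3 points per genotype. The *nr6a* sum lies near 2 in the mutants, the *rar*, *rxr* and *esrr* sums lie above the wildtype points, and the *ror*, *nr4a*, *nr3c*, *nr2c* and *esr* sums lie below them. The *esr* sum is small (1.55 CPM in wildtype, 1.40 CPM in mutants) and includes *esr1*, which was too low to be tested. The tested *esr2a* and *esr2b* had log2 fold changes of 0.30 and 0.15 and did not pass.

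Other receptors with a called change were mostly lower. *pparaa*, which in mammals drives fatty acid oxidation, fell from 7.30, 6.13 and 6.26 CPM in wildtype to 4.12, 3.53 and 4.25 CPM in mutant libraries, without overlap. Its log2 fold change was -0.72 (standard error 0.11, edgeR adjusted p = 2.07e-06). The counts of *pparaa* were fractional in all 6 libraries, and the reference annotation shows it overlapping *wnt7ba*, and their part in its value was not tested. *pparab* (edgeR adjusted p = 0.142), *ppardb* (0.186) and the adipocyte regulator *pparg* (0.540) did not pass. *nr3c1*, the glucocorticoid receptor, fell from 51.5, 51.3 and 52.3 CPM to 44.3, 43.0 and 46.5 CPM (log2 fold change -0.21, standard error 0.04, edgeR adjusted p = 3.11e-05). The mineralocorticoid receptor *nr3c2* had 1.36 ± 0.146 CPM in wildtype and 1.32 ± 0.107 CPM in mutant libraries (SD, n = 3 each, edgeR adjusted p = 0.910). The testis receptors *nr2c1* and *nr2c2*, orphan receptors expressed in many tissues, were lower, with log2 fold changes of -0.18 (standard error 0.04, edgeR adjusted p = 0.000499) and -0.42 (standard error 0.12, edgeR adjusted p = 0.00385). *nr2c2ap*, which is no receptor and overlaps *ncanb* and *rfxank* in the reference annotation, was higher by 0.28 (standard error 0.10, edgeR adjusted p = 0.0190), with overlapping genotypes. The estrogen-related receptor *esrra* was higher, at 14.7 ± 0.348 CPM in mutant against 12.8 ± 1.03 CPM in wildtype libraries (SD, n = 3 each, log2 fold change 0.20, standard error 0.07, edgeR adjusted p = 0.0108). Leaving out 1 library removed the call of *esrra* in 1 of 6 fits and that of *nr2c2ap* in 3, and DESeq2 called neither (adjusted p = 0.0605 and 0.0801).

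The thyroid hormone receptors *thraa* (3.11 ± 0.116 CPM in wildtype, 3.47 ± 0.456 CPM in mutants) and *thrb* (9.97 ± 0.357 and 9.37 ± 0.606 CPM) did not pass the test (SD, n = 3 each, edgeR adjusted p = 0.398 and 0.274). Nor did the vitamin D receptors *vdra* and *vdrb*, with log2 fold changes of -0.09 and -0.10, or the neural progenitor receptor *nr2e1*, with -0.08. *nr5a2*, an orphan receptor of early embryos and endoderm, had 9.39 ± 0.0429 CPM in wildtype and 9.91 ± 0.433 CPM in mutant libraries (SD, n = 3 each, edgeR adjusted p = 0.440), although its genotypes did not overlap. The remaining tested receptors, *nr0b2a*, *nr2e3*, *nr5a1a*, *esr2a*, *esr2b*, *esrrga* and *esrrgb*, lay between -0.40 and 0.30 and did not pass. Another 4 were too low to be tested. They are *nr1d4a*, *nr0b1* (7 to 12 counts per library), *nr5a1b* (3 to 8 counts) and *esr1*, which had 13, 9 and 7 counts in wildtype and 1, 5 and 3 counts in mutant libraries.

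Zebrafish carry duplicates of many receptor genes, and 16 pairs could be compared by the log2 ratio of the copies within each library. This ratio does not depend on how libraries are scaled. Both copies were called in the same direction in 5 pairs, 1 copy was called in 7, neither in 4, and no pair was called in opposite directions. As background, of all tested genes taken singly, 32.6% were called higher and 33.6% lower. The ratio of the copies did not overlap between genotypes in 7 of the 16 pairs (43.8%), each with an exact permutation p of 0.1 (two-sided), the smallest that 3 libraries against 3 allow, and 0.229 after adjustment over the pairs. A share for other pairs of genes was not computed, and 68.1% of all tested genes, taken singly, did not overlap. The largest shift was in *nr6a1*, where the log2 ratio of *nr6a1a* to *nr6a1b* went from 0.73 ± 0.11 in wildtype to 1.93 ± 0.11 in mutant libraries (SD, n = 3 each). For *nr1d2a* to *nr1d2b* it went from -3.23 ± 0.10 to -3.99 ± 0.19, and for *nr2f6a* to *nr2f6b* from -0.32 ± 0.02 to 0.01 ± 0.03 (SD, n = 3 each). *nr2f1a* moved relative to *nr2f1b* by -0.22, *rarga* relative to *rargb* by -0.29, *roraa* relative to *rorab* by 0.48, with libraries of the genotypes nearly touching, and *rxrga* relative to *rxrgb* by 0.16. In contrast, the ratio of *raraa* to *rarab* was -0.82 ± 0.02 in wildtype and -0.85 ± 0.03 in mutant libraries (SD, n = 3 each, two-sided exact permutation p = 0.3), and that of *vdra* to *vdrb* shifted by less than 0.01.

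**Figure D4:**
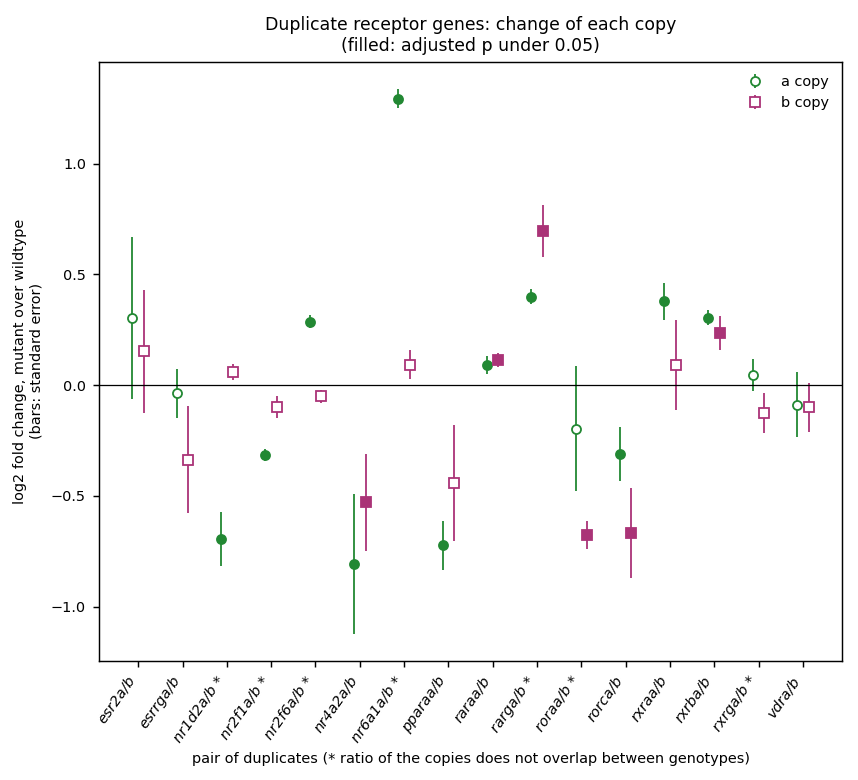
Log2 fold change of each copy of the 16 duplicate pairs (y axis, mutant over wildtype, bars are the standard error), with circles for the a copy, squares for the b copy and filled symbols for an adjusted p under 0.05. An asterisk marks the 7 pairs whose ratio does not overlap between genotypes, and the *nr6a1* pair is the farthest apart.

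The study's list of hindbrain-expressed genes, compiled from a public expression database, names 31 of the 58 symbols. Of the 30 of these that were tested, 8 were higher and 8 lower, and of the 24 tested symbols outside that list 4 were higher and 7 lower. Among the lower genes on the list, it marks *nr1d1*, *nr1d2a* and all *nr4a* genes as not expressed by 24hpf. It marks the other lower genes on it, *rorca* and *nr2f1a*, and all of the higher ones as expressed by then. Of all tested genes 32.6% were called higher and 33.6% lower. The study counts *raraa*, *rarab* and *nr2f2* as rhombomere-restricted. Its list describes *raraa* as expressed in the entire hindbrain and names the ventral part of r4 (rhombomere 4). For *rarab* it gives the entire hindbrain, with expression that might be stronger in r5/6. Log2 fold changes of *raraa*, *rarab* and *nr2f2* lay between 0.09 and 0.11, with overlapping genotypes for *raraa*.

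Transcripts of proteins that nuclear receptors recruit were also measured. As background to the counts here, 32.6% of all tested genes were called higher and 33.6% lower. Of 17 coactivator symbols, 4 are listed in the table, and all 4 were higher, with log2 fold changes of 0.40 for *ncoa2*, 0.31 for the methyltransferase *carm1*, 0.17 for *ncoa5* and 0.12 for *ncoa4*. Of the 8 corepressor genes tested, 3 were higher, among them *hdac3* (0.27) and *tbl1xr1b* (0.21), and *ncor1* was lower (-0.10). Of the receptors whose symbols the pattern does not take, *hnf4a* (log2 fold change 0.53, edgeR adjusted p = 0.000685) and *hnf4b* (0.45, edgeR adjusted p = 0.00450), regulators of liver and gut genes, were higher, and *hnf4g*, *ar* and *pgr* did not pass. Genes listed as chaperones and cochaperones of steroid receptors, general chaperones among them, were lower in 11 of 13 cases. The largest of these changes were in the heat shock genes *hsp70.1* (-3.68) and *hsp90aa1.2* (-3.43) and in the cochaperone genes *dnajb1b* (-1.64) and *dnaja1* (-1.19). The genes *hsp70.1*, *hsp90aa1.1*, *hsp90aa1.2* and *dnajb1b* are also counted among the heat shock genes below. *ptges3b*, named after its value was seen, was higher (0.37), and *fkbp5* did not pass (edgeR adjusted p = 0.610). Of 9 tested genes known in mammals as glucocorticoid receptor targets, 2 were higher and 3 lower, with log2 fold changes of 0.84 for *per1b*, 0.19 for *zbtb16a*, -0.90 for *nfkbiaa*, -0.51 for *pck1* and -0.19 for *tsc22d3*.

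Cell markers and stress genes differed between the genotypes at the same time. As background, 32.6% of all tested genes were called higher and 33.6% lower. Skeletal muscle markers were lower in 15 of 17 cases and higher in 2, and their summed level was 23084 to 23463 CPM in wildtype and 9082 to 9250 CPM in mutant libraries. Early neuron markers were lower in 11 of 15 cases and higher in 1 (764 to 773 CPM against 621 to 624 CPM). Heat shock genes were lower in 12 of 14 cases and higher in 2 (4319 to 4434 CPM against 1943 to 1962 CPM). Of 14 yolk syncytial layer markers, 7 were higher and 6 lower (5461 to 5532 CPM against 6958 to 6991 CPM). None of these lists was at or near 0 in either genotype. Their part in the receptor changes was not tested, and a difference in stage, in handling or in the embryo pools cannot be told apart from genotype in this design.

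**Figure D5:**
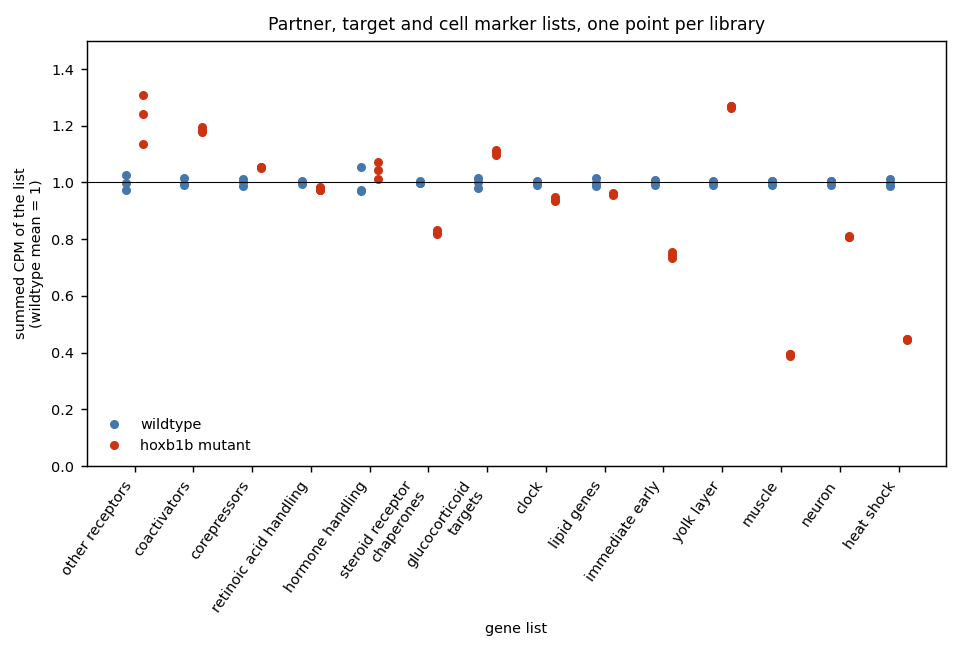
Summed CPM of each list of partner, target and marker genes in each library, divided by its wildtype mean (y axis, from 0), with 3 points per genotype. The muscle and heat shock lists lie lowest in the mutants, below 0.5, and the points of one genotype lie close together in every list except those of the other receptors and of hormone handling. Some genes belong to several lists, among them heat shock genes that are also listed as steroid receptor chaperones.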

How the data were processed

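The authors deposited 1 table with the estimated counts of every gene in each library, not normalized. The labels' processing notes name FastQC, RSEM 1.2.28, DESeq2 and the builds GRCz10 and danRer7, and the paper names a web interface. Settings are not given in the sources used here. The table also holds an adjusted p-value, a log2 fold change and a ratio (fold change) from the authors' comparison, which the authors made and which were not used.

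Counts were rounded and tested in R 4.3.3 with edgeR 4.0.16 (filterByExpr, TMM, glmQLFit, glmQLFTest, genotype as the only factor), after a check on simulated data. Groups came from the sample labels. The standard error is the log2 fold change divided by the root of F. Replicates of a genotype differed by more than sampling noise, with an estimated coefficient of variation of 1.85% beyond counting. Total counts set the precision, and 3 libraries per genotype limit any permutation p to 0.1.

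The receptor genes and the lists were chosen with earlier results of these data known. Genes named are those past 2-fold, the 12 largest called changes without overlap, all *rar*, *rxr*, *nr2f* and *thr* genes, examples of other subfamilies, and up to 4 genes per list. Other receptors, and further genes of the lists for retinoic acid and hormone handling, chaperones, glucocorticoid targets and other receptors, were named after their values were seen. Names and overlaps of genes come from RefSeq on GRCz12tu, where all 58 symbols matched, and its coordinates were used only for the overlaps. Another 7 RefSeq symbols fit the pattern but are not in the count table. They are *thrab*, *pparda*, *esrrb*, *esrrd*, *rorc*, *nr0b2b* and *nr5a5*. Alternatives were other scalings and filters, DESeq2 1.42.0, unrounded values, a replicate block and leaving out each library. The value of 1 gene among the lists is not reported here.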

Additional observations from a re-analysis of the deposited data

How the results depend on the processing

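Only *nr6a1a* passed 2-fold with every scaling, with a replicate block and without any single library. The count of receptor symbols past 2-fold was 2 without a filter and 2 with DESeq2, the other gene being *esr1* (log2 fold changes -1.77 and -1.81, adjusted p = 0.00427 with edgeR and 0.0295 with DESeq2), and 9 above 1.5-fold (18.6% of all tested genes). Calls at an adjusted p under 0.05 were 12 higher and 15 lower, and with DESeq2 8 and 11 (all genes: 6949 of 13466), and with total count scaling 15 and 13 (8378 of 12471). Leaving out each library gave 9 to 12 higher, 10 to 16 lower and 1 past 2-fold. Over all genes, these fits called 7635 to 7882 of 12553 to 12604 tested at an adjusted p under 0.05. With an assumed coefficient of variation of 0.2 between pools, chosen after seeing the data, 1 was higher (*nr6a1a*) and 2 lower (*rorab* and *pparaa*) while 1590 of 12471 genes were called, and with 0.4 there were 0 past 2-fold, 0 higher and 0 lower, and 263 genes called. The median log2 fold change of the receptor symbols was -0.043 (all tested genes: -0.0034), 0.0020 with total count scaling and from -0.073 (without wildtype replicate 2) to 0.015 (without wildtype replicate 1) with each library left out. Genes that had not passed changed sign. *nr3c2* was 0.014 with total count scaling. With a library left out, *nr3c2* ranged from -0.12 to 0.034, *vdra* from -0.18 to 0.0051, *rxrab* from -0.025 to 0.26 and *rxrga* from -0.030 to 0.12. Libraries with the same number in their titles did not deviate together (correlations 0.06, 0.04 and -0.03), so the numbers were not taken as pairs. The mutant columns of the count table carry other numbers than the titles. By those, wildtype replicate 2 goes with mutant replicate 1 and wildtype replicate 3 with mutant replicate 2 (correlations -0.10 and -0.01). With the replicate block, 11 were higher, 15 lower and 1 past 2-fold (all genes: 8155 of 12471 called at an adjusted p under 0.05). *raraa* lost its call with the block (adjusted p = 0.0652 from edgeR), as it did with upper quartile scaling, the stricter filter and DESeq2. The cause of these shifts was not tested.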

Other observations

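Genes that make or inactivate receptor ligands other than retinoic acid changed in both directions. Of 9 tested, 3 were higher and 3 lower (background 32.6% and 33.6% of all tested genes). The steroid synthesis gene *cyp11a1* rose from 4.60 ± 0.910 to 13.7 ± 0.312 CPM and *hsd3b2* from 2.83 ± 0.343 to 5.75 ± 0.379 CPM (SD, n = 3 each), with log2 fold changes of 1.59 and 1.03. The steroid enzyme gene *cyp17a1* (log2 fold change -0.89) and the thyroid hormone deiodinase genes *dio3b* (-0.94) and *dio1* (-0.66) were lower, and *cyp24a1*, which breaks down vitamin D, was higher (0.42). All had edgeR adjusted p-values under 0.05.

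Of 17 tested lipid genes known mainly from mammals as PPAR or LXR targets, 9 were higher and 5 lower (background 32.6% and 33.6%). The desaturase gene *scd* rose from 1.58 ± 0.309 to 3.77 ± 0.245 CPM (SD, n = 3 each), and *srebf1*, a regulator of lipid synthesis, had a log2 fold change of 0.60. The lipase inhibitor gene *angptl4* (-0.78) and the muscle carnitine transferase gene *cpt1b* (-1.33) were lower, all with edgeR adjusted p-values under 0.05. *cpt1b* had a mean of only 0.665 CPM in wildtype and 0.256 CPM in mutant libraries. Muscle markers were lower in the same mutant libraries, and a link between the changes was not tested.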
